A study of Mus musculus with 5 samples.

Results

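The miR-140 arms are the mature microRNAs (miRNAs) mmu-miR-140-5p and mmu-miR-140-3p (miR-140-5p and miR-140-3p), cut from the same hairpin precursor. They were taken by name from the deposited sheet of miRNA counts, and they were 2 of the 736 mature miRNAs in it. They were chosen by their measured levels, since an earlier fit of these counts had shown a level of miR-140-5p in every Mtdh-/- library under that of either wild-type library. Levels, the ratio of the arms, isoform shares and their differences between genotypes are therefore given as a description, with no test. Small RNA of whole testis was sequenced from C57BL/6 mice aged 6 months. Of the 5 libraries, 3 came from Mtdh-/- mice, in which exon 3 of the metadherin gene Mtdh is deleted, and 2 from wild-type mice. The labels name no other allele or agent and do not say whether each library came from its own animal, so an SD or SE, and the p-values behind the calls over all miRNAs, measure only the spread between these libraries.

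A miRNA hairpin is cut by the enzymes Drosha and Dicer into a short duplex, and one strand of it, the 5p or the 3p arm, is kept by an Argonaute protein. The bases near the 5′ end of that strand, called the seed, pair with target messenger RNAs, so a shift of the 5′ end changes the seed. Outside the testis miR-140 is best known from cartilage, where the transcription factor SOX9 drives it and where mice without it have short bones.

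The hairpin gene Mir140 was at chr8:107551244-107551313 on the plus strand (RefSeq, GRCm38.p6). In the annotation it lies within the gene Wwp2 (chr8:107436365-107558595), which encodes a ubiquitin ligase. It overlaps an exon of a retained-intron transcript of Wwp2 (chr8:107550895-107553547) and lies in an intron of the protein-coding transcripts that span it. The hairpin is shown because both arms and their isoforms are read against it. It has 70 bases, of which 60 were paired in the structure RNAfold gave. Capitals mark bases 6 to 27, the annotated miR-140-5p, and bases 46 to 67, the part of the most abundant miR-140-3p sequence that the hairpin holds. The annotated miR-140-3p covers bases 45 to 65.

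Mir140 hairpin: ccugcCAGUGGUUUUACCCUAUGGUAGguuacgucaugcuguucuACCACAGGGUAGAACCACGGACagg

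The sheet names 2 sequences for each arm, the annotated mature one and the single sequence with the most tags, and capitals mark the seed (bases 2 to 8) and any last base that is not in the hairpin.

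miR-140-5p, annotated: cAGTGGTTttaccctatggtag
miR-140-5p, most abundant: cAGTGGTTttaccctatggtagT
miR-140-3p, annotated: tACCACAGggtagaaccacgg
miR-140-3p, most abundant: aCCACAGGgtagaaccacggacT

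The most abundant sequence of miR-140-5p had the annotated start and 23 bases in place of 22. Its last base was not that of the hairpin (G23T, counted from 1 at the 5′ end of the 23-base sequence, hairpin base first). The most abundant sequence of miR-140-3p also had 23 bases, against 21 in the annotated one. It began 1 base further downstream and ended in a T that the hairpin does not hold (A23T, counted in the same way). Its seed was CCACAGG in place of ACCACAG. Among 1833 mature miRNAs searched, miR-876-3p shares the seed of miR-140-5p and miR-497b shares the annotated seed of miR-140-3p, and neither is in the sheet. The shifted seed of miR-140-3p was found in 0 others.

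Both features were uncommon in these libraries. Of 250 miRNAs with at least 50 counts, 186 could be placed on a RefSeq hairpin, and 105 of these had the mature sequence as the most abundant one. The start lay 1 base downstream in 5 of the 186 (2.69%), among which miR-140-3p had the most counts. A last base T outside the hairpin was present in 14 of the 186 (7.53%), both miR-140 arms among them. The 105 can show neither feature, so both shares are higher among the rest of the 186.

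The libraries differed in depth and did not fall together by genotype. Total miRNA counts were 118475 to 720259 in the Mtdh-/- libraries, against 198640 and 474839 in the wild-type libraries, so 3 counts stood for 4.17 to 25.3 CPM, the count scaled to the total miRNA counts of its library and given per 1000000. Across 246 miRNAs, log2 CPM of wild type 1 correlated most with Mtdh-/- 3 (r = 0.94) and less with wild type 2 (r = 0.85). The highest correlation of wild type 2 was with Mtdh-/- 1 (r = 0.91). The messenger RNA of Mtdh was not measured, so these counts hold no check of the genotype.

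miR-140-5p was the scarce arm, and its level was high in 1 library, wild type 2. It had 40, 5 and 15 counts in Mtdh-/- 1, 2 and 3, against 14 and 213 counts in wild type 1 and 2. These were 55.5 CPM (95% Poisson interval 39.7 to 75.6), 42.2 CPM (13.7 to 98.5) and 58.0 CPM (32.5 to 95.7) in Mtdh-/-, against 70.5 CPM (38.5 to 118) and 449 CPM (390 to 513) in wild type. The groups did not overlap, but the interval of wild type 1 overlapped those of all 3 Mtdh-/- libraries, and only that of wild type 2 stood clear of the other 4. All such intervals cover counting error only.

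The mean of miR-140-5p was 51.9 ± 8.51 CPM in Mtdh-/- (SD, n = 3) and 260 ± 267 CPM in wild type (SD, n = 2). The wild-type SD exceeded its own mean, since wild type 2 held 6.36 times the level of wild type 1. The fitted log2 fold change was -1.95 (SE 0.80), and it was -0.49 without wild type 2. Wild type 1 alone stood 1.36 times above the Mtdh-/- mean, and wild type 2 alone 8.64 times above it.

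edgeR's quasi-likelihood test called 0 of 246 miRNAs higher (0.0%) and 0 lower (0.0%) in Mtdh-/- at a Benjamini-Hochberg adjusted p under 0.05. Before adjustment, 7 had a p under 0.05. DESeq2, run on 512 miRNAs, called 0 and had 19 such miRNAs before adjustment. Of 246 miRNAs, limma, applied to the tags as the authors scaled them, called 0 and had 3. The biological coefficient of variation was 0.70, and the median log2 fold change of all miRNAs tested was 0.19. Only 2 of the 246, all of which had passed a filter on low counts, had a lower fitted value than miR-140-5p. A level below both wild-type libraries in every Mtdh-/- library occurred in 23 of the 246 (9.35%), and the reverse in 12 (4.88%). miR-140-5p belongs to the 23 by the way it was chosen.

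A peak in wild type 2 was common among the 246 miRNAs past the filter on low counts, and that of miR-140-5p was their steepest by ratio. miRNAs that the filter left out are not ranked, and some had steeper peaks. One was miR-883b-5p, with 485 counts in wild type 2, against 4 in wild type 1 and 3, 2 and 5 in Mtdh-/- 1, 2 and 3. Wild type 2 was the highest library for 69 of the 246 miRNAs. By its ratio to the next highest library, miR-140-5p was the first of the 246 at 6.36, ahead of miR-15a-5p at 5.43 and miR-742-5p at 4.30.

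miR-140-3p was the abundant arm and showed no such pattern. It had 962, 209 and 826 counts in Mtdh-/- 1, 2 and 3, against 654 and 910 in wild type 1 and 2. Its levels were 1336, 1764 and 3196 CPM in Mtdh-/-, against 3292 and 1916 CPM in wild type. The groups overlapped, with Mtdh-/- 3 next to wild type 1 and the other Mtdh-/- libraries below wild type 2. The means were 2099 ± 974 CPM in Mtdh-/- (SD, n = 3) and 2604 ± 973 CPM in wild type (SD, n = 2), and the log2 fold change was -0.29 (SE 0.67). Without wild type 1 it was 0.53, with the opposite sign. In order of mean CPM among 717 miRNAs, miR-140-3p was number 53 and miR-140-5p number 171. In whole testis, fewer cells that make a miRNA and less of it per cell cannot be told apart.

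**Figure D1:**
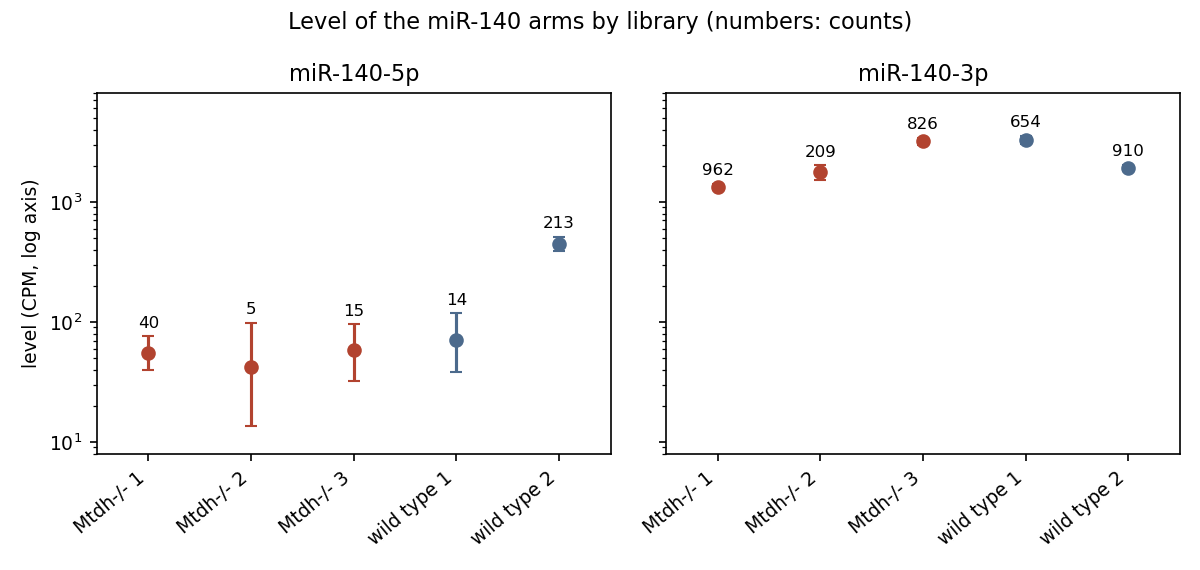
Level of miR-140-5p (left) and miR-140-3p (right) in each library, in CPM on a log axis; red points are Mtdh-/- libraries, blue points wild-type libraries, bars the 95% Poisson interval, and the number above each point its count. For miR-140-5p, 4 libraries lie between 42.2 and 70.5 CPM and wild type 2 lies at 449 CPM, while for miR-140-3p the genotypes overlap.

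The 3p arm outnumbered the 5p arm in every library. There were 24.05, 41.8 and 55.1 counts of miR-140-3p per count of miR-140-5p in Mtdh-/- 1, 2 and 3, against 46.7 and 4.27 in wild type 1 and 2. The 3p arm made up 96.0% (Wilson 95% interval 94.6 to 97.1), 97.7% (94.6 to 99.0) and 98.2% (97.1 to 98.9) of the counts of both arms in Mtdh-/-, against 97.9% (96.5 to 98.7) and 81.0% (78.6 to 83.2) in wild type. Wild type 1 lay among the Mtdh-/- libraries, and wild type 2 alone lay below them. On the log2 scale the ratio averaged 5.19 ± 0.59 in Mtdh-/- (SD, n = 3) and 3.79 ± 2.41 in wild type (SD, n = 2), a difference of 1.39 that became -0.31 without wild type 2.

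A 3p arm this dominant was uncommon among hairpins with both arms counted in all 5 libraries. Of 48 such hairpins, 17 had more 3p than 5p counts on average and the median log2 ratio was -2.70. mir-140, at 4.63 ± 1.48 over the 5 libraries (SD), was number 4, after mir-881, mir-148a and mir-92a-1. Its range over the libraries, 3.64 on the log2 scale, was number 15 in width, with a median range of 2.89 over the 48. Ratios of this kind therefore varied between libraries for many hairpins. Every Mtdh-/- ratio was above both wild-type ratios in 3 of the 48 (6.25%), and mir-140 was not one of them.

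The log2 ratio of mir-140 differed by -3.40 between the wild-type libraries, wild type 2 minus wild type 1. The 4 hairpins with a larger drop between these libraries were mir-470 (-6.58), mir-881 (-5.26), mir-871 (-4.67) and mir-463 (-3.42). Next after mir-140 were mir-3068 (-3.35), mir-743a (-3.31) and mir-411 (-3.30).

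**Figure D2:**
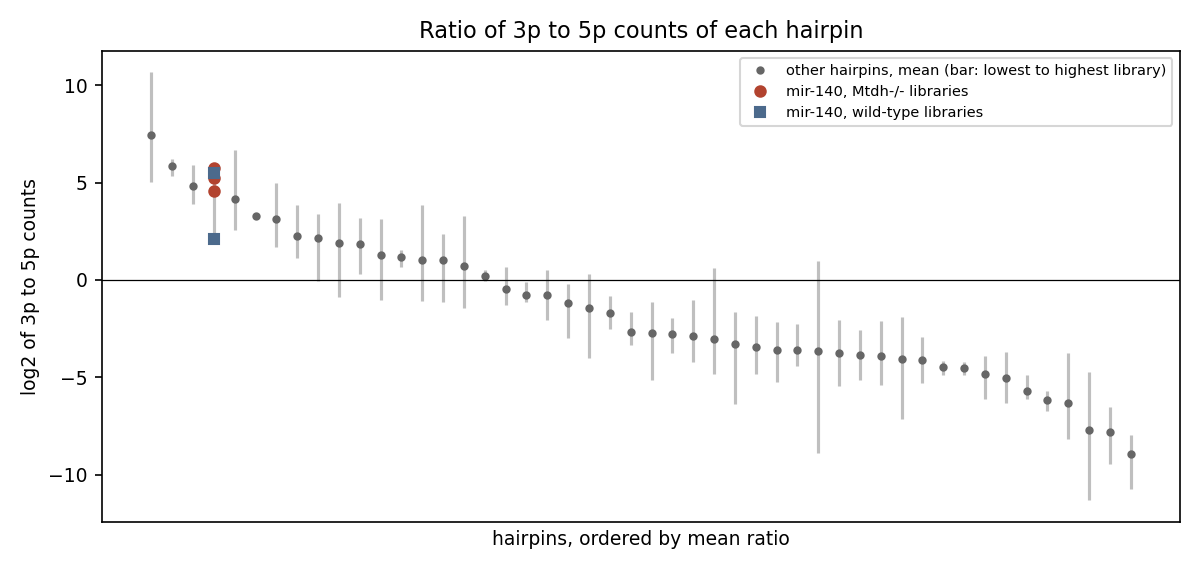
Log2 ratio of 3p to 5p counts for 48 hairpins, ordered by their mean ratio; grey points are means and grey bars run from the lowest to the highest library, and for mir-140 red circles are Mtdh-/- libraries and blue squares wild-type libraries. mir-140 stands at place 4 from the left, with 4 libraries between 4.57 and 5.74 and wild type 2 at 2.09.

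Within miR-140-5p, the sequence with the added T had a smaller share of the counts in each Mtdh-/- library than in either wild-type library. The sequence with the added T had 12 of 40, 3 of 5 and 4 of 15 counts in Mtdh-/- 1, 2 and 3, against 10 of 14 and 149 of 213 in wild type 1 and 2. The shares were 30.0% (Wilson 95% interval 18.1 to 45.4), 60.0% (23.1 to 88.2) and 26.7% (10.9 to 52.0) in Mtdh-/-, against 71.4% (45.4 to 88.3) and 70.0% (63.5 to 75.7) in wild type. The groups did not overlap, although Mtdh-/- 2 rests on 5 counts and its interval takes in both wild-type shares. Only the intervals of Mtdh-/- 1 and 3 lie below that of wild type 2.

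The mean share was 38.9 ± 18.4% in Mtdh-/- (SD, n = 3) and 70.7 ± 1.04% in wild type (SD, n = 2). The difference was -31.8 percentage points. Among 90 miRNAs with at least 5 counts in every library and a most abundant sequence other than the mature one, the median difference was -0.72 points, and 16 of the 90 (17.8%) had a lower share in every Mtdh-/- library, against 7 (7.78%) with a higher one. Without wild type 2 the difference was -32.5 points, although that library still supplied most of the counts by which this sequence ranks as the most abundant.

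The annotated sequence of miR-140-5p had 26, 0 and 11 counts in Mtdh-/- 1, 2 and 3, against 4 and 40 in wild type 1 and 2. Its shares were 65.0%, 0% and 73.3% in Mtdh-/-, against 28.6% and 18.8% in wild type. By its Wilson 95% interval, the 0 of 5 counts in Mtdh-/- 2 allows a share of up to 43.4%, and by the limit of 3 counts a share of up to 60.0%. It outnumbered the sequence with the added T in Mtdh-/- 1 and 3 only. The mean difference was 22.4 points, and the groups overlapped because of Mtdh-/- 2.

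Which sequence of miR-140-5p was the most abundant depended on the library that holds most of its counts. Over all 5 libraries the sequence with the added T had 178 counts and the annotated one 81. Summed over the 3 Mtdh-/- libraries, the sequence with the added T had 19 of 60 counts and the annotated one 37. Wild type 2 supplied 213 of the 287 counts of the arm, and without it the annotated sequence had the more counts, 41 against 29.

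The isoforms of miR-140-3p did not separate the genotypes. Its most abundant sequence had 28.9%, 37.8% and 28.3% of the counts in Mtdh-/- 1, 2 and 3, against 38.8% and 21.4% in wild type 1 and 2 (difference 1.54 points). The annotated sequence had 3.33%, 0.957% and 14.2% in Mtdh-/-, against 8.41% and 4.95% in wild type (difference -0.53 points). In both measures the wild-type libraries lay among or around the Mtdh-/- libraries. The shifted sequence, with its own seed, thus outnumbered the annotated one in every library. Other isoforms, whose sequences the sheet does not give, made up 57.5% to 67.8% in Mtdh-/-, against 52.8% and 73.6% in wild type.

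**Figure D3:**
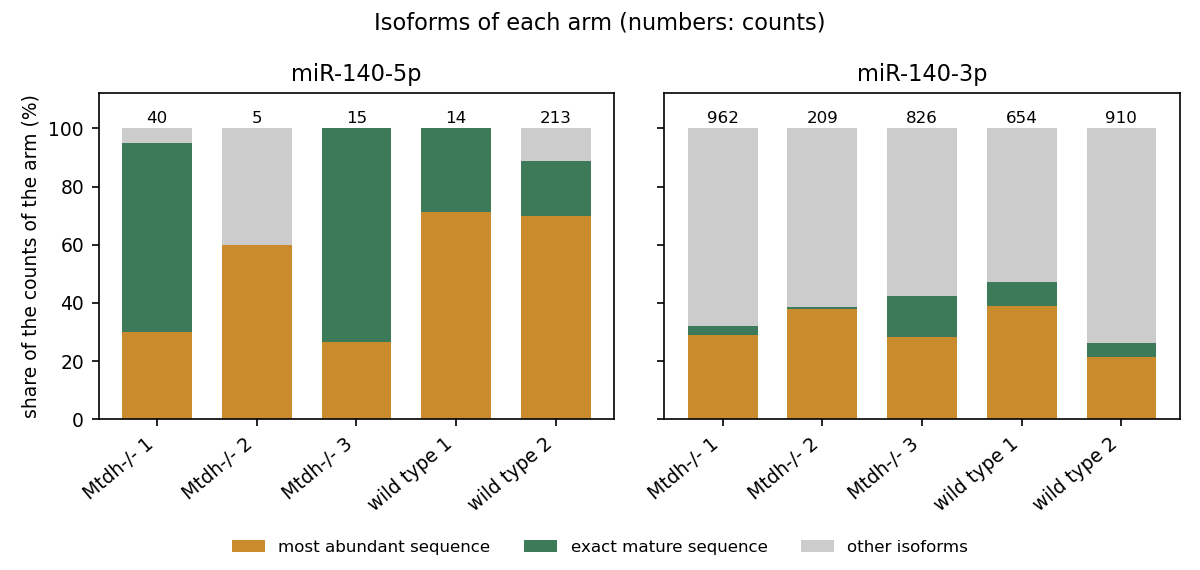
Share of the counts of miR-140-5p (left) and miR-140-3p (right) in the most abundant sequence (orange), the exact mature sequence (green) and other isoforms (grey) in each library; the number above each bar is the count it rests on. For miR-140-5p the orange share is 26.7% to 60.0% in the Mtdh-/- libraries, against 70.0% and 71.4% in the wild-type libraries, and for miR-140-3p it is 21.4% to 38.8% with the genotypes overlapping.

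The authors' deposited tables of miRNAs lower in each Mtdh-/- library give fold ratios computed from the most abundant sequence alone. The scaled tags had 10 added. For miR-140-5p, the authors' deposited table holds ratios of 0.142, 0.180 and 0.137 for Mtdh-/- 1, 2 and 3 over the wild-type mean. For miR-140-3p, the authors' deposited table lists 0.471 for Mtdh-/- 1 and no value for the other 2 libraries. The largest ratio listed in any of these tables of lower miRNAs is 0.5. Recomputed over the wild-type mean, the ratios of miR-140-3p were 0.774 and 1.07 in Mtdh-/- 2 and 3, above that value. Computed in the same way against wild type 1 alone, a comparison added after the values were seen, the ratios of miR-140-5p were 0.448, 0.569 and 0.431, and against wild type 2 alone they were 0.0844, 0.107 and 0.0812. With tags of all isoforms in place of the most abundant sequence, the ratios to wild type 1 were 0.831, 0.636 and 0.844. The ratios were thus nearer to 1 with wild type 1 than with wild type 2, and nearer to 1 with all isoforms than with the most abundant sequence.

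Over all 5 libraries the arms of the hairpin did not follow each other, and they lay furthest apart in wild type 2. There, in log2 CPM minus its own mean, miR-140-5p stood at 2.36 and miR-140-3p at -0.18. In the other libraries miR-140-5p had 5 to 40 counts, and its intervals for counting error overlapped. Likeness was measured as the root mean square distance between log2 CPM profiles over the 5 libraries, each centred on its own mean, among 246 miRNAs. For miR-140-5p the nearest were miR-449a-5p (0.43), miR-375-3p (0.55), miR-470-5p (0.56), miR-471-5p (0.58) and miR-760-3p (0.59). miR-449a belongs to the miR-34/449 family of ciliated and meiotic cells, miR-375 is known from endocrine cells, and miR-470 and miR-471 are X-linked and testis-enriched. All 5 were highest in wild type 2, which follows from their choice by likeness to miR-140-5p. miR-449a-5p stood at 10019, 6432 and 5228 CPM in Mtdh-/- 1, 2 and 3, against 7128 and 36924 CPM in wild type 1 and 2.

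For miR-140-3p the nearest were miR-151-3p (0.19), miR-743b-3p (0.19), miR-146b-5p (0.21), miR-191-5p (0.23) and miR-743a-3p (0.24). These were high in Mtdh-/- 3 and wild type 1, as was miR-140-3p, which again follows from how they were chosen. From miR-140-5p, its own 3p arm was number 119 of 245 at 1.33, close to the median distance of 1.34. From miR-140-3p, the 5p arm was number 186 of 245.

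**Figure D4:**
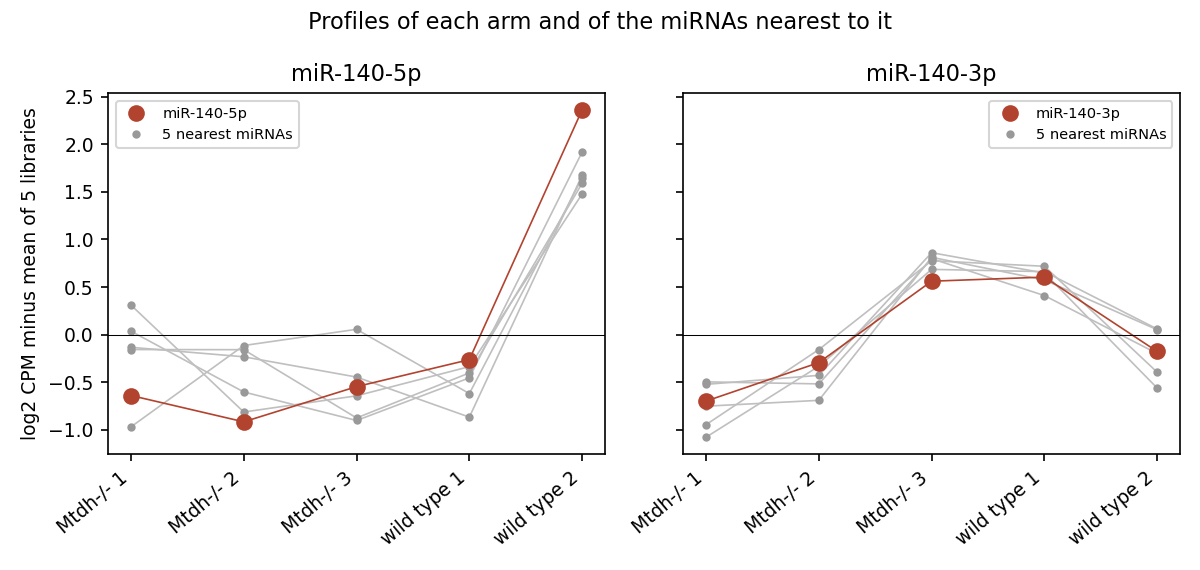
Log2 CPM minus the mean of the 5 libraries for miR-140-5p (left, red) and miR-140-3p (right, red), each with its 5 nearest miRNAs in grey; lines join the values of one miRNA and stand for no order. The miR-140-5p group peaks in wild type 2, with miR-140-5p at 2.36, and the miR-140-3p group is high in Mtdh-/- 3 and wild type 1.

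Other miRNAs linked to cartilage or SOX9 had few or no counts, at most 19 in any library. Of 7 listed, the arms of miR-140 included, 5 were counted and only the miR-140 arms were tested. miR-455-5p had 3, 0 and 2 counts in Mtdh-/- 1, 2 and 3, against 0 and 5 in wild type 1 and 2. miR-455-3p had 19 counts in Mtdh-/- 1 and 0 elsewhere, and miR-1247-5p had 5 counts in Mtdh-/- 3 and 0 elsewhere. Both arms of miR-675 were uncounted.

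Markers of several cell types varied between the libraries, and 0 members of any list passed the edgeR test. With no filter on low counts, 5 of 512 miRNAs were called. Of these, 2 are on the stromal list, miR-199a-5p and miR-214-3p, both called higher in Mtdh-/-. Each was high in 1 Mtdh-/- library only. miR-199a-5p had 1592, 8 and 25 counts in Mtdh-/- 1, 2 and 3, against 4 and 82 in wild type 1 and 2. In the same order, miR-214-3p had 10, 540 and 17 counts, against 8 and 18. Both Sertoli miRNAs, miR-202-5p and miR-202-3p, were counted in every library, with a summed 1020 to 1899 CPM in Mtdh-/-, against 1113 and 2856 CPM in wild type 1 and 2, and of the pair miR-202-5p was highest in wild type 2 and miR-202-3p in Mtdh-/- 2. The 7 counted of 8 stromal and smooth muscle miRNAs summed to 86909 to 116337 CPM in Mtdh-/-, against 72035 and 120483 CPM in wild type 1 and 2. The Sertoli and stromal sums were both highest in wild type 2, as miR-140-5p was. The stromal sum was mostly miR-143-3p, which held 118345 of the 120483 CPM in wild type 2. Of the 7 stromal members, 2 were highest in wild type 2, 2 in Mtdh-/- 1, 2 in Mtdh-/- 2 and 1 in Mtdh-/- 3. The 11 of 11 germ-cell miRNAs summed to 33518 to 82528 CPM in Mtdh-/-, against 109822 and 65009 CPM in wild type 1 and 2. Of these 11, only miR-34c-5p and miR-881-3p were highest in wild type 1, as miR-140-3p was, and 4 were highest in wild type 2.

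The other lists had lower sums than the stromal and germ-cell lists. The 2 counted of 4 endothelial miRNAs summed to 1460 to 11160 CPM in Mtdh-/-, against 3177 and 5612 CPM in wild type 1 and 2. The 5 of 5 epithelial miRNAs summed to 966 to 2179 CPM in Mtdh-/-, against 1158 and 1862 CPM in wild type. The 4 counted of 6 blood miRNAs summed to 77.4 to 253 CPM in Mtdh-/-, against 85.6 and 131 CPM in wild type, so their sum was low in every library. Of these 4, only miR-451a was counted in every library. The part of these cell types in the values of the miR-140 arms was not tested.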

How the data were processed

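Small RNA of testis was measured in 3 Mtdh-/- and 2 wild-type libraries. Per the labels' protocols, frozen testes were extracted with mirVana reagents and Illumina TruSeq libraries were prepared. Novoalign 2.07.11 is named in the submitters' processing notes. Build, trimming and counting rules were not given in the sources used here. Raw tags make up the deposited counts, per the file headers, of each mature miRNA and precursor, in 3 kinds: all isoforms, the most abundant sequence and the exact mature sequence. Blank cells were taken as 0, and no count of 1 occurred, the smallest above 0 being 2. In a second sheet the authors deposited scaled and rounded tags, treated here as a normalized score. The fold ratio in the authors' deposited tables is a ratio of such tags for the most abundant sequence after adding 10, per the file headers. A further 226 columns of per-library values were not used.

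Of 846 lines for 736 mature miRNAs, each miRNA was represented by its line of highest total, and 19 miRNAs with an identical most abundant sequence were joined to another, leaving 717, of which 512 had a count. CPM are counts scaled to the total miRNA counts of the library. edgeR 4.0.16 in R 4.3.3 (robust quasi-likelihood test, TMM, filterByExpr, Benjamini-Hochberg adjustment, threshold 0.05) was fitted to all 5 libraries without a replicate term, after it was tested on simulated counts. Log2 fold changes have Mtdh-/- on top. DESeq2 1.42.0 and limma 3.58.1 (pseudocount 1) were alternatives, as were other scalings, no filter on low counts, the other 2 kinds of count, and leaving out each library. Log2 ratios and profiles used a prior count of 0.5. Profiles were compared among miRNAs that passed the filter with a mean of at least 10 CPM. Sequences and hairpins are from the deposited sheet and RefSeq (GRCm38.p6), gene models from GENCODE M21 on the same assembly, and structures from RNAfold 2.7.2.

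Besides the arms, the named miRNAs were the 5 nearest in profile to each arm, the listed marker miRNAs and those sharing a seed. miR-15a-5p, miR-742-5p and the hairpins named by their ratios were picked after their values were seen. The arms and all lists were chosen with earlier results of these data known.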

Additional observations from a re-analysis of the deposited data

How the results depend on the processing

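The lower level of miR-140-5p in Mtdh-/- kept its sign under all 15 alternatives, but not its size. miR-140-5p was chosen for a level in every Mtdh-/- library under both wild-type libraries, so the kept sign is no independent support. Its log2 fold change was -3.04 with counts of the most abundant sequence and -0.78 with counts of the exact mature sequence, and it ranged from -2.59 to -0.49 when 1 library was left out. The value nearest 0 was that without wild type 2. Upper-quartile scaling moved the median log2 fold change of all miRNAs to -0.13, against 0.19, and left miR-140-5p at -2.28 and miR-140-3p at -0.60; library totals moved it to 0.02. For miR-140-3p the range was -0.90 to 0.53, with the change of sign without wild type 1. The count of miRNAs called was 0 under 14 alternatives and with each library left out (0 to 0). With no filter on low counts it was 5 of 512. Of these 5, miR-17-3p, miR-199a-5p and miR-214-3p were higher (miR-199a-5p and miR-214-3p are on the stromal list) and miR-191-3p and miR-883b-5p lower. All 5 were named after their values were seen, and all but miR-17-3p were high in 1 library only. The difference in log2 arm ratio ranged from -0.31 without wild type 2 to 3.09 without wild type 1. The mean arm ratio was 1.95 with counts of the exact mature sequence, against 4.63, and 4.35 to 5.26 with 1 library left out. The share of miR-140-5p in its most abundant sequence differed by -42.4 to -25.7 points with 1 library left out, and its exact mature share by 8.82 to 45.5 points. For miR-140-3p these ranges were -7.16 to 10.2 and -4.54 to 2.07 points, both including a change of sign, and the exact mature share differed by 1.17 points when counts were summed over each genotype. Where a left-out library left 1 wild-type library, the fit assumed that it varied like the others.

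Whether the replicate numbers pair the libraries could not be settled. Deviations from the genotype means correlated at -0.45 across miRNAs for number 1 and at 0.03 for number 2. With 2 wild-type libraries, the deviations of one mirror those of the other, so these values cannot decide on a pairing. With the replicate block the log2 fold change was -1.61 for miR-140-5p and -0.51 for miR-140-3p, 0 miRNAs were called, and the difference in log2 arm ratio within numbers was 1.12. Within numbers, the shares in the most abundant sequence differed by -25.7 and 3.22 points and the exact mature shares by 8.82 and -4.54 points, for miR-140-5p and miR-140-3p in that order. The counts of miR-140-5p, 5 to 40 in 4 of the libraries, limit every statement on its level and isoforms.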
